A study of Mus musculus with 9 samples.

Results

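The genes described here are the core of the Wnt signalling pathway as measured in mouse heart muscle cells: 19 Wnt ligands, 7 Frizzled receptors, 2 co-receptors, 9 secreted antagonists, 3 cytoplasmic components and 4 nuclear factors. They were chosen by gene name and role, not by their values, though earlier results of these data were known. They make up 44 of 33844 regions around transcription start sites (TSS) in the deposited table. All 44 passed the filter on low counts, which kept 33747 regions. The assay was ATAC-seq: a transposase cuts open chromatin and tags it for sequencing. Hearts came from CD-1 (ICR) mice 1, 14 or 56 days after birth (P1, P14 and P56), with 3 libraries per age, and the labels name no transgene. Each library came from pooled hearts, 12 at P1 and 6 to 7 at the later ages, and nuclei were sorted on Pcm1, a protein of the cardiomyocyte nuclear envelope. The growth protocol mentions surgery without saying whether it applied to these hearts.

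Wnt proteins are secreted lipid-modified ligands that bind Frizzled receptors, and in the canonical branch also the co-receptors Lrp5 and Lrp6. Binding stops a cytoplasmic complex built on axin from degrading beta-catenin (Ctnnb1), which then enters the nucleus and works with factors of the Tcf and Lef family. The pathway guides heart formation in the embryo, and ligands such as Wnt11 and Wnt5a also act through a branch that does not use beta-catenin.

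The promoter sequences below were picked as examples of genes without and with a peak over the start: 3 ligands, of which nearly all lacked one, and 2 Frizzled receptors with Ctnnb1, which had one. Each is the stretch of up to 250 bases before a RefSeq start in GRCm38.p6, cut where it would enter the annotated gene, read 5′ to 3′ on the gene's strand. Capitals mark CTTTGNT or its reverse complement ANCAAAG, where N is any base, a loose pattern for the sites of Tcf and Lef factors.

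The windows of the ligands Wnt1 (chr15:98789607-98789856, plus strand), Wnt9a (chr11:59306680-59306848, plus strand) and Wnt11 (chr7:98834862-98835083, plus strand) lay outside every deposited peak. Those of Fzd5 (chr1:64737751-64738000, minus strand), Fzd7 (chr1:59481897-59482146, plus strand) and Ctnnb1 (chr9:120933150-120933399, plus strand) lay wholly within one.
Wnt1: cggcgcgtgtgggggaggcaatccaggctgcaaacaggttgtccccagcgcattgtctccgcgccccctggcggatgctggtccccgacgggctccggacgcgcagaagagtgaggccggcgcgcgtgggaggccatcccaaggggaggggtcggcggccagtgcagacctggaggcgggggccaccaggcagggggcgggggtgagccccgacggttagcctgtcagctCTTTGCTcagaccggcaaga
Wnt9a: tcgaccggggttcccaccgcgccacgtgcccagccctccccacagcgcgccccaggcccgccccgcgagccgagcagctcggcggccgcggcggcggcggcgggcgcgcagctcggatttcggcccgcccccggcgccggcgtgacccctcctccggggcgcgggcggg
Wnt11: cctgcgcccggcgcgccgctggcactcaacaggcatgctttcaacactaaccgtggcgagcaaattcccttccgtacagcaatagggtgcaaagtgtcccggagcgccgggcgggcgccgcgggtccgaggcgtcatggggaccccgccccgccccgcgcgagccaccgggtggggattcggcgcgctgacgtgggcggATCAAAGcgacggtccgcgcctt
Fzd5: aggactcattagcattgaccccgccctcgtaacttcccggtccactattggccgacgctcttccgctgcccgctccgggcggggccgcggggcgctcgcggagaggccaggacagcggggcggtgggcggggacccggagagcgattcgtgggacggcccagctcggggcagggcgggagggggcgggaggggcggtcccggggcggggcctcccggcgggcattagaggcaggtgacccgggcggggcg
Fzd7: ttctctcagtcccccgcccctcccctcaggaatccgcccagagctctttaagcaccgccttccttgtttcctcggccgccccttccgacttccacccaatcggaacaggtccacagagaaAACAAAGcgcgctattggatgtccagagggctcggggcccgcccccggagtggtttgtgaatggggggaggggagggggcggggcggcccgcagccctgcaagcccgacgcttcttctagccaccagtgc
Ctnnb1: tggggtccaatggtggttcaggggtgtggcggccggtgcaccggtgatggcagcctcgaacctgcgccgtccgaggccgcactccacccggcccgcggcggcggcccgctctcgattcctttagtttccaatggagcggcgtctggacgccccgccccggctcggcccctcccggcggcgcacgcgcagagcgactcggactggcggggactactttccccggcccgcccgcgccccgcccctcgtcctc

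The motif stood at bases -20 to -14 before the start of Wnt1, -51 to -45 before that of Wnt11 and -130 to -124 before that of Fzd7. Over the whole 300-base windows that RefSeq gives, which run 50 bases past the start, 8 of the 30 Wnt pathway genes with an entry held it on either strand (26.7%). The share over all 27025 genes with an entry was 20.9%, and the difference was not tested. It is a match of letters only.

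A peak lay over the start of 13 of the 44 genes (29.5%). Over the genes with a promoter entry whose symbol is also in the deposited TSS table the share was 40.1% (6111 of 15225). It was 1 of 19 for the ligands, where Wnt16 was the exception, and 1 of 9 for the antagonists, where it was Wif1. It was 6 of 7 for the Frizzled receptors, all but Fzd9, 1 of 2 for the co-receptors (Lrp6), 2 of 3 for the cytoplasmic genes (Ctnnb1 and Axin2) and 2 of 4 for the nuclear factors (Tcf7l1 and Tcf7l2). For 14 genes with no promoter entry a peak over either end of the gene was accepted, which is a looser rule. Among the 30 genes with an entry the ligands had 1 of 15 and the receptors 3 of 4. The deposited peak list is common to the 3 stages, so these shares describe them together.

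**Figure D1:**
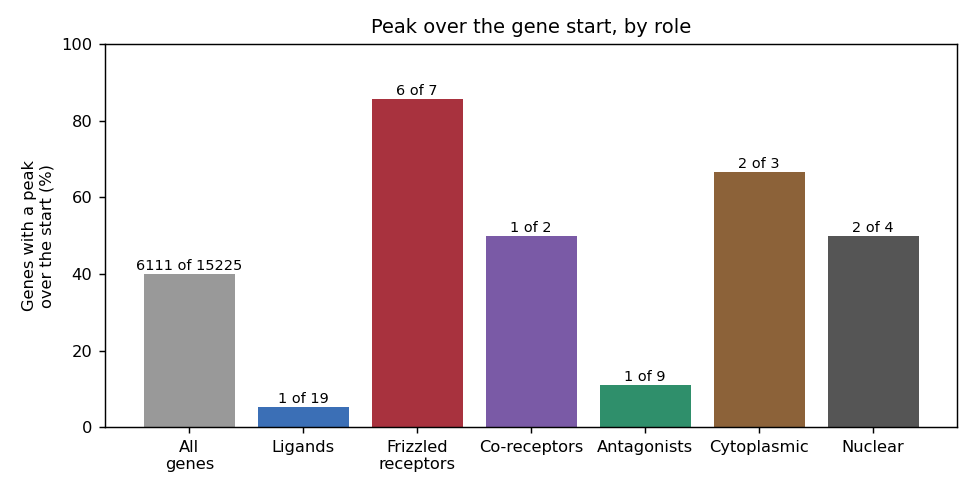
Share of genes whose start lies in a deposited peak (vertical axis, percent), for all genes that have both a RefSeq promoter entry and a row in the TSS table and for each role of the Wnt pathway; the count stands above each bar. The receptors stand at 6 of 7 and the ligands at 1 of 19, against 6111 of 15225 for those genes.

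The libraries held 481217 to 893032 TSS counts at P14, at P1 1414979 to 2167369 and at P56 874639 to 1468352, and the counts at a single Wnt pathway gene ran from 5 to 183. The median gene had 17 to 28.5 counts per library at P14, so differences that involve P14 were measured least precisely. Signal over background, taken as the percentage of TSS counts that fell in the richest 10% of regions, was 32.6% to 33.4% in the P1 libraries, 34.6% to 36.0% in those of P14 and 36.0% to 38.6% in those of P56. The summed level of 10 cardiomyocyte markers was lowest in P1 replicate 1 (491 CPM, that is counts after scaling each library to the same total) and highest in P56 replicate 2 (2284 CPM). The other libraries lay between 773 and 1214 CPM. No measured marker of endothelial cells, fibroblasts, smooth muscle, leukocytes, epicardium, glia or red cells had a count of 0 in any library. Every deposited region had a mean of at least 10 counts, so this cannot show whether other cell types were present. The sources of these counts were not tested. Levels are not compared between genes at the TSS, because the width of the counted region is not stated. In bulk material, fewer nuclei with an open region and less opening per nucleus cannot be told apart.

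Between P1 and P56 none of the 44 genes passed the test (edgeR's quasi-likelihood F test, adjusted over all regions, threshold 0.05), beside 2.53% of all regions tested (853, with 1.72% up and 0.806% down). At an unadjusted p below 0.05 there were 7, 5 higher and 2 lower at P56, beside 21.6% of all regions (11.3% higher and 10.3% lower). None passed between P1 and P14, where 4 regions in all did (0.0119%), and 4 genes, all higher at P14, had an unadjusted p below 0.05 (background 8.59%, with 4.92% higher). None passed between P14 and P56 either, where 1 region did (0.00296%), and 6 had an unadjusted p below 0.05, 3 in each direction (background 10.1%, with 6.04% higher and 4.04% lower). A single test for any difference among the stages called 236 regions (0.699%) and none of these genes, with 8 at an unadjusted p below 0.05 (background 17.8%). DESeq2 also called none of them in the 3 comparisons, and limma-voom called Wnt9a between P1 and P56.

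The median log2 change of the 44 genes was 0.24 from P1 to P56, with 35 above 0, beside -0.01 over all regions, of which 16635 of 33747 were above 0. From P1 to P14 it was 0.16, with 31 above 0 (all regions 0.00, with 16876 above 0). From P14 to P56 it was 0.07, with 25 above 0 (all regions -0.02, with 16334 above 0). The comparisons share libraries and are not independent of each other. The median from P1 to P56 was 0.12 with library size alone and -0.02 with the scaling factors of the peak table, where the median of all regions also moved, to -0.14 and -0.30. It was 0.05 with loess offsets and 0.10 with a mean count of at least 20, where the median of all regions was 0.00 and 0.01. The genes above 0 numbered 28 with library size alone, 18 with the peak table's factors and 24 with loess offsets. With a mean count of at least 20 they were 28 of 43. The median from P1 to P14 was 0.03 with the peak table's factors (all regions -0.14), 0.05 with loess offsets (all regions -0.03) and 0.03 with a mean count of at least 20 (all regions 0.00). It was 0.05 without P1 replicate 1, 0.11 without P14 replicate 1, and 0.10 without P14 replicate 2. The median from P14 to P56 was -0.08 with the peak table's factors (all regions -0.17) and -0.02 with loess offsets (all regions 0.02). It was -0.03 without P56 replicate 1 and 0.02 without P56 replicate 3.

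**Figure D2:**
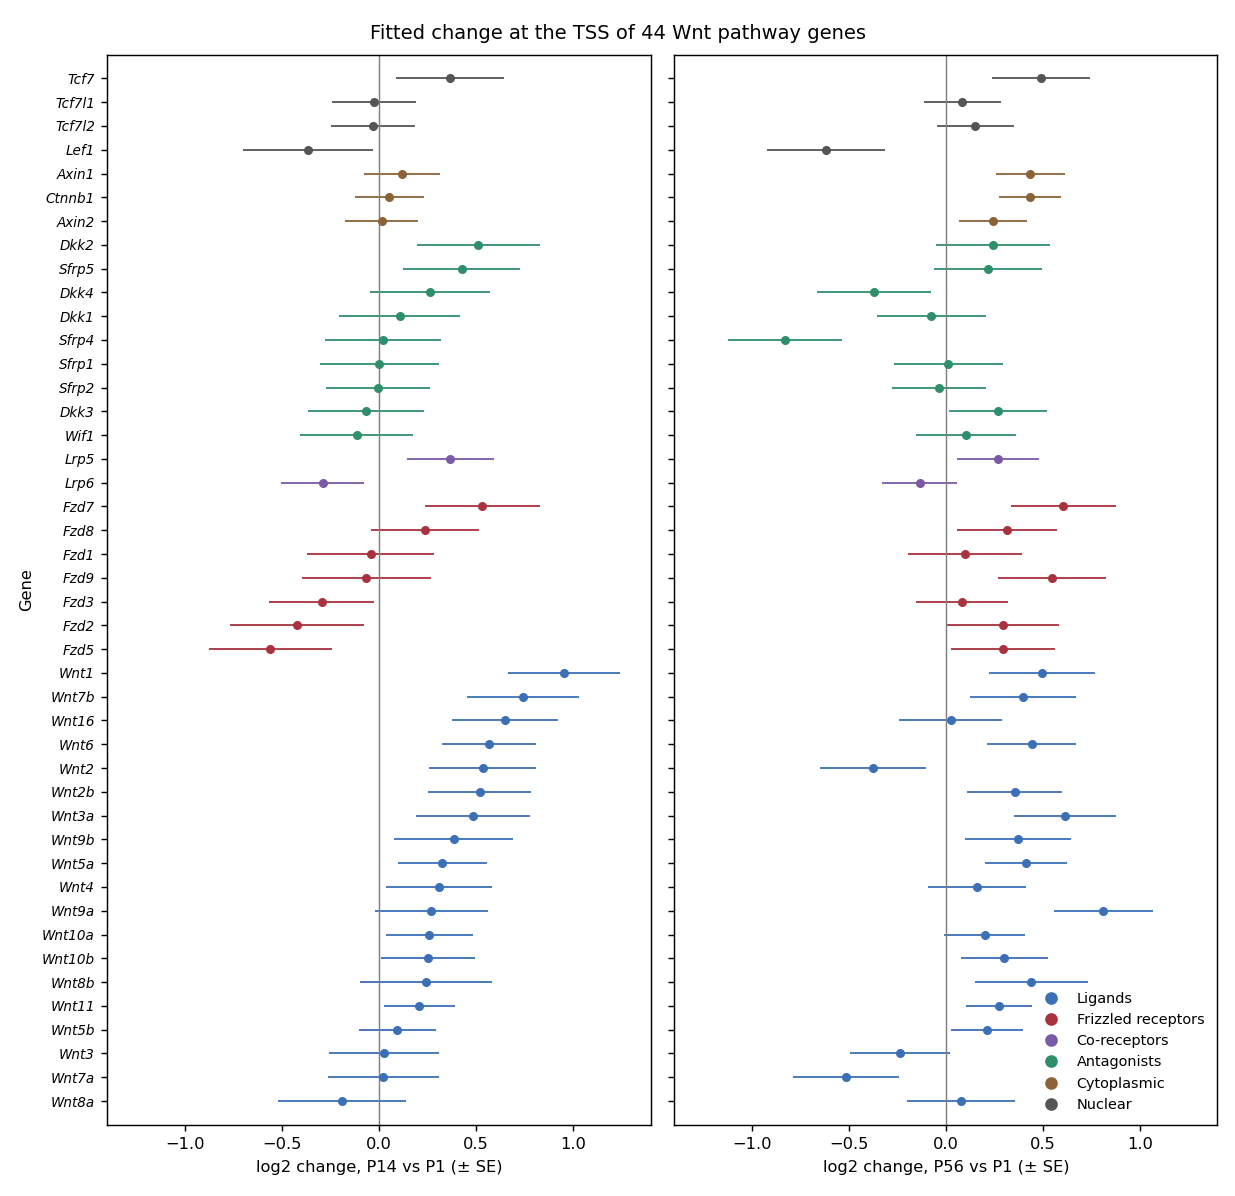
Fitted log2 change with its SE (horizontal axis) for each of the 44 genes (vertical axis), from P1 to P14 on the left and from P1 to P56 on the right, coloured by role. From P1 to P14, 18 of 19 ligands lie above 0 and 5 of 7 Frizzled receptors below it, the latter 3 of 7 without P1 replicate 3 or P14 replicate 3. From P1 to P56, 16 of 19 ligands lie above 0. No single gene passed the test.

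From P1 to P14, 18 of the 19 ligands had a log2 change above 0, with a median of 0.31, and in 10 of them every P14 library lay above every P1 library, beside 9.02% of all regions. None passed the test. The 4 with an unadjusted p below 0.05 in this comparison were Wnt1, Wnt7b, Wnt16 and Wnt6. From P1 to P56, 16 of the 19 ligands were above 0, with a median of 0.30. In 5 of them every P56 library lay above every P1 library, beside 3673 of all 33747 regions. From P14 to P56, 8 of the 19 were above 0, with a median of -0.06. The median ligand stood at 27.4, 27.4 and 26.3 CPM in the P1 libraries, at 34.4, 40.1 and 43.0 CPM at P14, and at 42.3, 28.6 and 32.6 CPM at P56. The 3 P14 libraries were thus above the 3 P1 libraries, and P56 replicate 2 lay close to P1. Summed over the ligands the 3 P1 libraries gave 604 to 676 CPM, the P14 libraries 805 to 833 CPM and the P56 libraries 676 to 871 CPM. Over the alternatives tried, 15 to 19 of the ligands were above 0 from P1 to P14, with medians of 0.18 to 0.37.

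Marker sums of smooth muscle with pericytes and of the epicardium were also higher in every P14 library than in every P1 library. Those of endothelial cells, fibroblasts, leukocytes, glia with neurons, red cells and cardiomyocytes overlapped between P1 and P14. The 7 smooth muscle and pericyte markers summed to 153 to 172 CPM in P1 libraries, 183 to 227 CPM in P14 libraries and 185 to 196 CPM in P56 libraries, and 6 of 7 had a change above 0 from P1 to P14. That of 5 epicardial markers was 118 to 122, 145 to 179 and 129 to 149 CPM, with 4 of 5 above 0 from P1 to P14. The 7 endothelial markers summed to 245 to 310, 297 to 388 and 291 to 346 CPM, with 4 of 7 above 0. The 7 fibroblast markers summed to 280 to 321, 238 to 307 and 266 to 288 CPM, with 2 of 7 above 0. Depth was also lowest at P14. The part of each in the ligands' values was not tested. Of the 31 genes of the pathway with no peak over the start, 26 were above 0 from P1 to P14 (median 0.26), and of the 13 with one, 5 were (median -0.03).

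**Figure D3:**
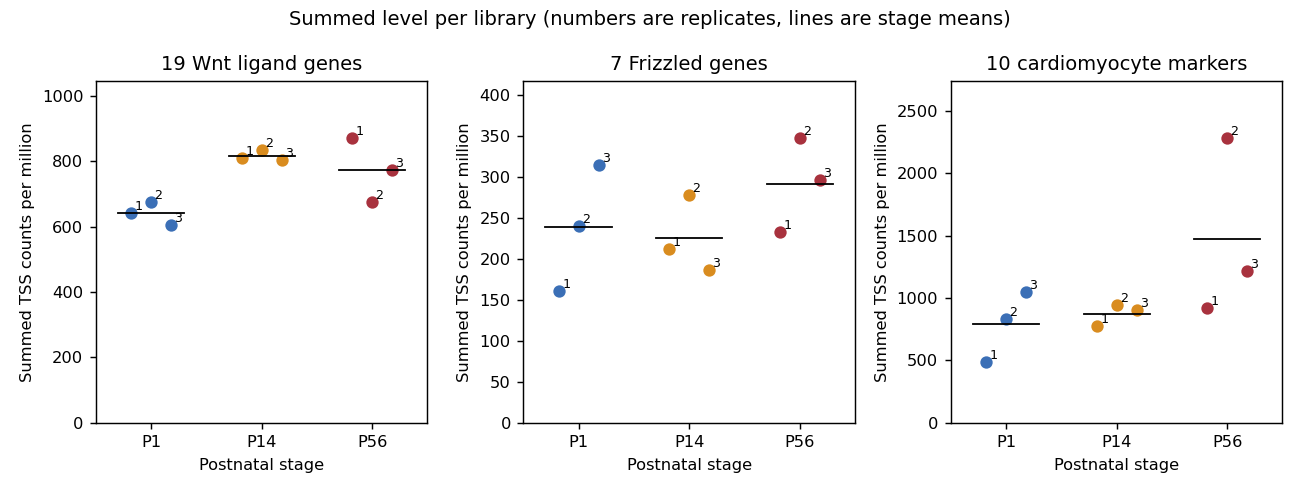
Summed TSS level (vertical axis, CPM) of the 19 ligands, the 7 Frizzled receptors and 10 cardiomyocyte markers in each library by stage (horizontal axis), with the replicate number beside each point and lines at stage means. The P14 ligand sums (805 to 833 CPM) lie above all P1 sums (604 to 676 CPM), and in the receptors and the markers P1 replicate 1 is lowest and P56 replicate 2 highest.

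Wnt1 (ENSMUSG00000022997, chr15:98789857-98793830 in GRCm38.p6, as for the gene positions that follow), a canonical ligand best known from brain development, stood at 23.9, 24.7 and 14.7 CPM at P1. It was 32.2, 59.1 and 34.8 CPM at P14, and 32.6, 29.3 and 26.8 CPM at P56. Both later stages lay above all P1 libraries, with P14 replicate 2 far above the rest. The log2 change from P1 to P14 was 0.95 ± 0.29 (SE), the smallest p of the set in that comparison (edgeR adjusted p = 0.450), and that to P56 was 0.50 ± 0.27 (adjusted p = 0.288). Without P1 replicate 1 and P56 replicate 2 the change to P14 was 1.05 (adjusted p = 0.0265).

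Wnt2 (ENSMUSG00000010797, chr6:17985474-18032772), a ligand of the developing lung and heart, stood at 22.6, 27.4 and 24.2 CPM at P1. It was 28.9, 38.0 and 43.0 CPM at P14, and 25.5, 16.6 and 14.0 CPM at P56. P14 was the highest stage and overlapped neither of the others. Its log2 change was 0.53 ± 0.27 from P1 to P14 (edgeR adjusted p = 0.597) and -0.91 ± 0.30 from P14 to P56 (adjusted p = 0.315).

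Wnt9a (ENSMUSG00000000126, chr11:59306849-59333552), a ligand known from joint formation, stood at 18.7, 26.7 and 37.8 CPM at P1. It was 33.3, 29.5 and 36.9 CPM at P14, and 42.3, 54.9 and 47.8 CPM at P56. Every P56 library was above all libraries of the earlier stages. The log2 change from P1 to P56 was 0.81 ± 0.26, a 1.75-fold difference, with the smallest adjusted p of all 44 genes (edgeR, 0.0717). It passed with limma-voom (0.89, adjusted p = 0.0448) and when P1 replicate 3 was left out (1.11, adjusted p = 0.0311). Over all alternatives its adjusted p ran from 0.0220 to 0.361.

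Wnt11, a ligand of the branch without beta-catenin that is needed for the outflow tract, stood at 79.5, 81.5 and 70.9 CPM at P1. It was 98.8, 71.7 and 94.2 CPM at P14, and 101, 85.0 and 94.4 CPM at P56. The P56 libraries were above those of P1, with a log2 change of 0.27 ± 0.17 (edgeR adjusted p = 0.355) that was -0.01 with the peak table's scaling factors. Wnt5a, which acts in the same branch, stood at 38.2, 45.2 and 45.7 CPM at P1, at 48.9, 63.3 and 51.2 CPM at P14, and at 52.9, 56.4 and 62.9 CPM at P56. All libraries of both later stages were above those of P1. The log2 change was 0.41 ± 0.21 to P56 (edgeR adjusted p = 0.248) and 0.33 ± 0.23 to P14 (adjusted p = 0.706).

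Wnt3a, Wnt6, Wnt7b and Wnt16 are described because their unadjusted p was below 0.05 in a comparison, a choice made after the values were seen. Wnt3a, a strong canonical ligand, had a log2 change of 0.61 ± 0.26 from P1 to P56 (edgeR adjusted p = 0.172), and 0.95 without P1 replicate 1 and P56 replicate 2 (adjusted p = 0.0383). The changes from P1 to P14 were 0.74 ± 0.29 for Wnt7b (edgeR adjusted p = 0.526), 0.65 ± 0.27 for Wnt16 (adjusted p = 0.542) and 0.57 ± 0.24 for Wnt6 (adjusted p = 0.551). Wnt16 stood at 29.5, 21.2 and 25.2 CPM at P1, at 36.7, 42.2 and 43.0 CPM at P14, and at 30.0, 18.1 and 31.5 CPM at P56. Its P14 libraries were above all others, and its change from P14 to P56 was -0.62 ± 0.29 (edgeR adjusted p = 0.465).

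Several ligand genes lie side by side, so their regions are not independent in position. Wnt6 and Wnt10a are 6696 bp apart on chromosome 1, Wnt3a and Wnt9a 16097 bp apart on chromosome 11, and Wnt10b and Wnt1 11650 bp apart on chromosome 15. The annotated Wnt9b and Wnt3 genes overlap on chromosome 11. Starts of predicted genes lie 25 bp from that of Wnt7a (Gm30437) and 94 bp from one of Wnt5b (Gm40397). Counts without strand cannot separate these pairs, and Wnt7a and Wnt5b are therefore uncertain.

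The Frizzled receptors, which pass the signal across the membrane, had a log2 change above 0 from P1 to P56 in 7 of 7 genes (0.08 to 0.61, median 0.30), and none passed the test. From P1 to P14, 2 of 7 were above 0 (median -0.07), and from P14 to P56 all 7 were (median 0.38). The first count was 5 of 7 with library size alone, the peak table's factors, loess offsets or a mean count of at least 20, and the last was 4 of 7 with the peak table's factors and 6 of 7 with loess offsets. The count from P1 to P14 was 2 of 7 under each of these settings, but 4 of 7 without P1 replicate 3 or without P14 replicate 3, 3 of 7 without P14 replicate 1 and 1 of 7 without P1 replicate 1. Their summed level was 160, 240 and 315 CPM at P1, 212, 278 and 186 CPM at P14, and 233, 348 and 296 CPM at P56, so the stages overlapped. P1 replicate 1 was the lowest P1 library in 6 of the 7 receptors, and it was also the lowest in cardiomyocyte markers. P56 replicate 2 was the highest in both sums. Without these libraries 2 of 7 receptors were above 0 from P1 to P56. Among the deposited peaks, those over receptor starts did not all share the TSS direction from P1 to P56. Their changes were 0.08 for Fzd7, -0.18 for Fzd1, -0.14 for Fzd3, -0.06 for Fzd8, -0.03 for Fzd5 and -0.001 for Fzd2. From P14 to P56 they were 0.53 for Fzd5, 0.45 for Fzd2 and 0.15 for Fzd3. They were -0.23 for Fzd1, -0.17 for Fzd7 and -0.05 for Fzd8. None of these peaks passed the test. The part of marker level and signal over background in the receptors' values was not tested.

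Fzd5 (ENSMUSG00000045005, chr1:64730558-64737750), a receptor of the canonical branch, stood at 27.4, 46.6 and 66.7 CPM at P1, at 27.8, 33.7 and 34.8 CPM at P14, and at 40.5, 82.0 and 46.6 CPM at P56. The P14 libraries lay below all P56 libraries, while P1 spanned both. Its log2 change was 0.85 ± 0.32 from P14 to P56 (edgeR adjusted p = 0.379), -0.56 ± 0.32 from P1 to P14 (adjusted p = 0.625) and 0.29 ± 0.27 from P1 to P56 (adjusted p = 0.544). Without P1 replicate 1 and P56 replicate 2 the second was -0.89 (adjusted p = 0.0297) and the third turned to -0.42 (adjusted p = 0.324). The third was also below 0 without either library alone, at -0.01 and -0.10.

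Fzd7, a receptor of stem and progenitor cells, stood at 16.1, 26.7 and 34.1 CPM at P1, at 30.0, 33.7 and 49.2 CPM at P14, and at 36.1, 38.4 and 41.9 CPM at P56. All P56 libraries were above those of P1, and P14 overlapped both. The log2 change from P1 to P56 was 0.61 ± 0.27 (edgeR adjusted p = 0.186), and that from P1 to P14 was 0.53 ± 0.30 (adjusted p = 0.621). At the peak over the start of Fzd7 the stages overlapped, with a change from P1 to P56 of 0.08 ± 0.26 (edgeR adjusted p = 0.896).

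Fzd9 stood at 17.8, 22.6 and 29.4 CPM at P1, at 21.1, 35.9 and 10.2 CPM at P14, and at 26.4, 35.4 and 40.8 CPM at P56. Its stages overlapped, with a log2 change from P1 to P56 of 0.55 ± 0.28 (edgeR adjusted p = 0.248). Fzd2, chosen after its values were seen for an unadjusted p just below 0.05, had a change of 0.72 ± 0.35 from P14 to P56 (edgeR adjusted p = 0.496). The other receptors, Fzd1, Fzd3 and Fzd8, had changes of 0.10, 0.08 and 0.32 from P1 to P56.

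The co-receptors Lrp5 and Lrp6, which join Frizzled to start the canonical signal, pointed in different directions. Lrp5 stood at 39.1, 44.5 and 44.1 CPM at P1, at 54.4, 56.9 and 53.3 CPM at P14, and at 52.9, 47.4 and 53.6 CPM at P56. Both later stages lay above P1 in every library. Its log2 change was 0.37 ± 0.23 to P14 (edgeR adjusted p = 0.659) and 0.27 ± 0.21 to P56 (adjusted p = 0.471).

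Lrp6 stood at 64.7, 70.6 and 75.6 CPM at P1, at 62.2, 61.2 and 47.1 CPM at P14, and at 60.8, 76.8 and 52.4 CPM at P56. Its P14 libraries were all below P1, while P56 overlapped both. The log2 change was -0.29 ± 0.21 to P14 (edgeR adjusted p = 0.720) and -0.14 ± 0.19 to P56 (adjusted p = 0.710). The difference between the co-receptors was not tested.

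**Figure D4:**
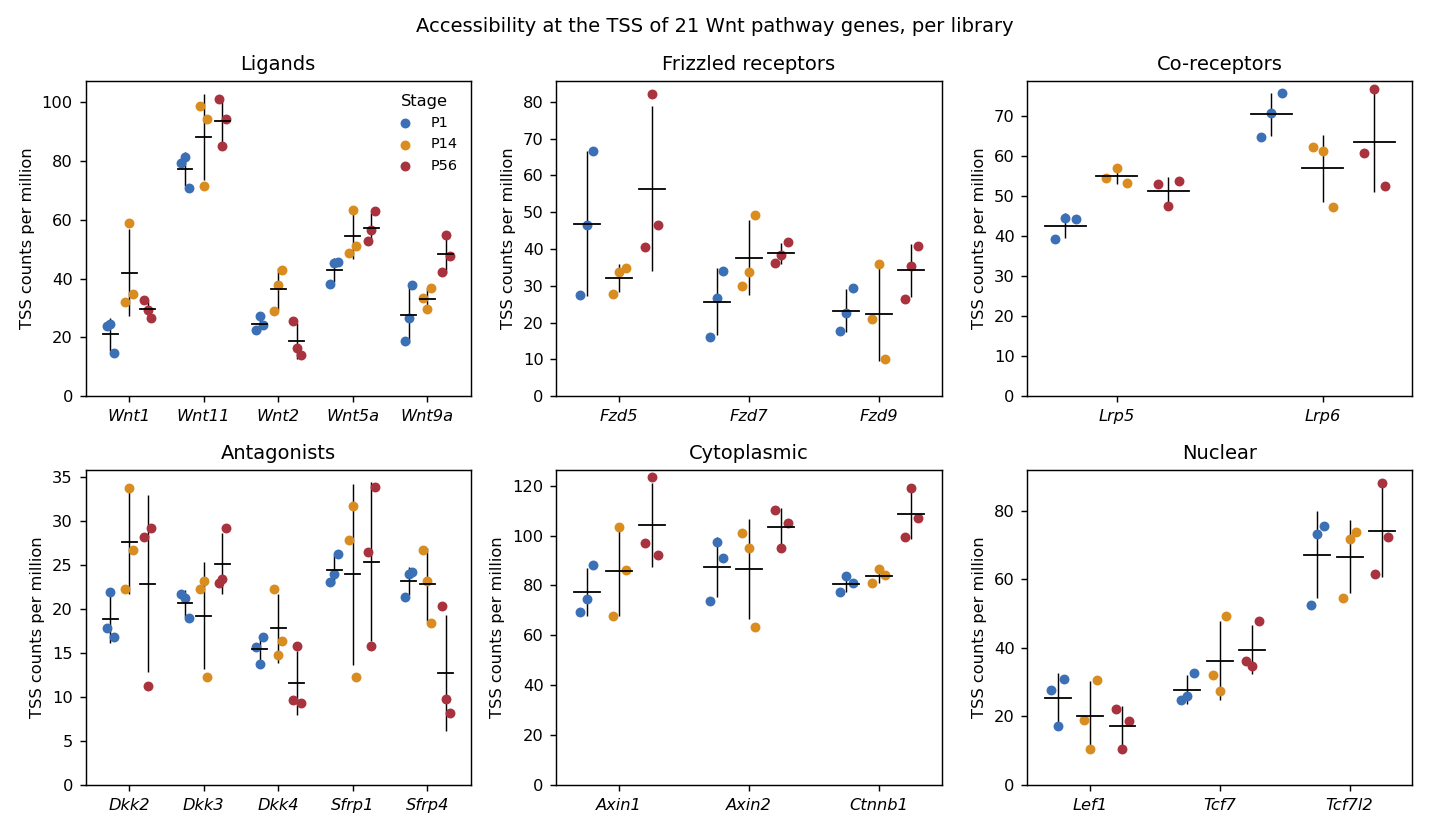
TSS level (vertical axis, CPM) of 21 Wnt pathway genes in each library, coloured by stage, in 1 panel per role; points are libraries, horizontal lines the mean of 3 and vertical lines the SD. P56 lies above P1 in every library for Wnt1, Wnt5a, Wnt9a, Wnt11, Fzd7, Lrp5, Dkk3, Axin1, Ctnnb1 and Tcf7, and below it for Sfrp4. None of these passed the test. Most of the 21 genes were chosen for a small p in these same libraries. Among all 44 genes, P56 lay above P1 in every library in 11 and below it in 1. Over all 33747 regions tested, P56 lay above P1 in every library in 3673 and below it in 4469.

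The secreted antagonists showed no common direction: 5 of 9 had a log2 change above 0 from P1 to P56 (median 0.01), 6 of 9 from P1 to P14 (0.02) and 3 of 9 from P14 to P56 (-0.18). None passed the test. Sfrp4 (ENSMUSG00000021319, chr13:19623175-19632825), a secreted Frizzled-related protein that binds Wnt ligands, stood at 21.3, 24.0 and 24.2 CPM at P1, at 26.7, 23.2 and 18.4 CPM at P14, and at 20.3, 9.78 and 8.16 CPM at P56. All P56 libraries were below those of P1, and 2 of them far below. Its log2 change was -0.83 ± 0.29 from P1 to P56 (edgeR adjusted p = 0.102), the lowest of the 44 genes, and -0.85 ± 0.35 from P14 to P56 (adjusted p = 0.408). It passed between P1 and P56 with the peak table's scaling factors (-1.11, adjusted p = 0.0258) and without P56 replicate 1 (-1.33, adjusted p = 0.0205). With those factors the median of all regions was itself -0.30, and 2300 regions were called lower at P56. The P56 counts of Sfrp4 were only 23, 13 and 7.

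Sfrp1, of the same family, stood at 23.0, 24.0 and 26.3 CPM at P1, at 27.8, 31.6 and 12.3 CPM at P14, and at 26.4, 15.8 and 33.8 CPM at P56. The later stages spread to both sides of P1, and the log2 change to P56 was 0.01 ± 0.28 (edgeR adjusted p = 0.988).

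The Dickkopf proteins bind Lrp5 and Lrp6, except Dkk3, which is a divergent member. Dkk2 stood at 17.8, 21.9 and 16.8 CPM at P1, at 22.2, 33.7 and 26.6 CPM at P14, and at 28.2, 11.3 and 29.1 CPM at P56. Its P14 libraries were all above P1, and at P56 replicate 2 was the lowest of all libraries. The log2 change was 0.51 ± 0.32 to P14 (edgeR adjusted p = 0.665) and 0.24 ± 0.29 to P56 (adjusted p = 0.652).

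Dkk3 stood at 21.7, 21.2 and 18.9 CPM at P1, at 22.2, 23.2 and 12.3 CPM at P14, and at 22.9, 23.3 and 29.1 CPM at P56, where it lay above P1 in every library (0.27 ± 0.25, edgeR adjusted p = 0.558). Dkk4 stood at 15.6, 13.7 and 16.8 CPM at P1, at 22.2, 14.8 and 16.4 CPM at P14, and at 9.69, 15.8 and 9.32 CPM at P56. The stages of Dkk4 overlapped. Its log2 change was -0.37 ± 0.29 to P56 (edgeR adjusted p = 0.472) and -0.63 ± 0.35 from P14 to P56 (adjusted p = 0.546).

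The cytoplasmic genes were above 0 in 3 of 3 cases in each comparison, and none passed the test. Ctnnb1 (ENSMUSG00000006932, chr9:120933400-120960507) encodes beta-catenin, which carries the signal to the nucleus and also holds cell junctions together. It stood at 77.4, 83.6 and 80.9 CPM at P1, at 81.1, 86.5 and 84.0 CPM at P14, and at 99.5, 119 and 107 CPM at P56. Every P56 library was above all earlier libraries, and P1 and P14 overlapped. Ctnnb1 had a log2 change of 0.43 ± 0.16 from P1 to P56 (edgeR adjusted p = 0.122) and 0.38 ± 0.18 from P14 to P56 (adjusted p = 0.480). Over all alternatives the first ran from 0.14 to 0.49, with adjusted p from 0.0733 to 0.658. At the peak over the start of Ctnnb1 the stages overlapped, with a change from P1 to P56 of 0.31 ± 0.28 (edgeR adjusted p = 0.596).

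Axin1, the scaffold of the complex that degrades beta-catenin, stood at 69.5, 74.7 and 88.2 CPM at P1, at 67.8, 103 and 86.0 CPM at P14, and at 96.9, 123 and 92.0 CPM at P56. The P56 libraries lay above those of P1. Its log2 change was 0.43 ± 0.18 (edgeR adjusted p = 0.156), and from P14 to P56 it was 0.32 ± 0.20 (adjusted p = 0.604). Axin2, a scaffold that is also a common target of the pathway, stood at 73.9, 97.3 and 90.8 CPM at P1, at 101, 94.9 and 63.5 CPM at P14, and at 110, 94.8 and 105 CPM at P56. Its stages overlapped, with a log2 change to P56 of 0.25 ± 0.18 (edgeR adjusted p = 0.422) that was -0.03 with the peak table's scaling factors and -0.01 with loess offsets.

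The nuclear factors bind sites for which the motif shown above is a loose pattern, and recruit beta-catenin. None of the 4 passed the test. Lef1 stood at 27.8, 17.1 and 31.0 CPM at P1, at 18.9, 10.5 and 30.7 CPM at P14, and at 22.0, 10.5 and 18.6 CPM at P56. Replicate 2 was the lowest library at every stage, and the stages overlapped. Lef1 had a log2 change of -0.62 ± 0.30 from P1 to P56 (edgeR adjusted p = 0.229) and -0.37 ± 0.33 from P1 to P14 (adjusted p = 0.790).

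Tcf7 stood at 24.8, 26.0 and 32.6 CPM at P1, at 32.2, 27.4 and 49.2 CPM at P14, and at 36.1, 34.6 and 47.8 CPM at P56. Its P56 libraries were above those of P1, with a log2 change of 0.49 ± 0.25 (edgeR adjusted p = 0.255). Tcf7l2, also studied as a diabetes risk gene, stood at 52.6, 73.3 and 75.6 CPM at P1, at 54.4, 71.7 and 73.8 CPM at P14, and at 61.7, 88.0 and 72.2 CPM at P56. Its stages overlapped, and the log2 change to P56 was 0.15 ± 0.20 (edgeR adjusted p = 0.678).

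The deposited peak list gave a further measurement of the same libraries. It held 28 peaks inside or within 5 kb of 22 of the genes, and none passed the test in any comparison. The background was 0.444% of 25885 peaks from P1 to P56 and 0.00773% in each of the other comparisons. At an unadjusted p below 0.05 there were 3 from P1 to P56 (16.0% of all peaks), 2 from P1 to P14 (6.04%) and 4 from P14 to P56 (14.7%). The medians of the 28 were 0.03, -0.02 and 0.15, beside 0.03, 0.00 and 0.02 over all peaks. Where a peak lies at a start, its reads can also be part of the TSS count.

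Peak lengths are known, so levels can be compared per length. The peak over the start of Fzd5 (chr1:64736762-64739257, 2496 bp) had 39.9, 27.6 and 38.7 CPM per kb as the means of P1, P14 and P56. That over Ctnnb1 (chr9:120932659-120934672) had 22.5, 21.2 and 27.7 CPM per kb. The lowest stage means among the 28 were 14.4 CPM per kb at P1 inside Wnt5b (chr6:119469696-119470808), 8.40 at P14 inside Lrp6 (chr6:134534590-134535382) and 7.77 at P56 inside Dkk2 (chr3:132087099-132088037).

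The peak at Wnt2 (chr6:18030517-18032269, beginning 72 bp upstream of the listed start and inside the annotated gene) stood at 41.1, 39.9 and 42.6 CPM at P1. It was 57.9, 62.3 and 56.8 CPM at P14, and 42.0, 21.7 and 18.4 CPM at P56. As at the TSS, every P14 library was above those of the other stages. The log2 change was 0.51 ± 0.32 from P1 to P14 (edgeR adjusted p = 0.906) and -1.10 ± 0.34 from P14 to P56 (adjusted p = 0.204). The latter was -1.53 without P56 replicate 1 (adjusted p = 0.0350).

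A peak inside Dkk2, 1807 bp past its start (chr3:132087099-132088037), stood at 23.0, 16.6 and 22.1 CPM at P1, at 24.6, 6.23 and 9.47 CPM at P14, and at 10.5, 4.71 and 6.68 CPM at P56. All P56 libraries were below those of P1, while P14 was split. Its log2 change from P1 to P56 was -1.53 ± 0.45 (edgeR adjusted p = 0.0850), the smallest p of the 28 peaks. It passed without P56 replicate 1 (-1.90, adjusted p = 0.0337). The TSS region of the same gene had a change of 0.24, so the regions did not share a direction.

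A peak inside Wnt5b, 21765 bp from its nearest start (chr6:119521540-119522582), stood at 23.0, 23.3 and 18.01 CPM at P1, at 22.8, 56.0 and 47.3 CPM at P14, and at 19.7, 24.5 and 18.4 CPM at P56. Of the P14 libraries, 2 were far above all others and 1 was not. This peak had a log2 change of 0.90 ± 0.37 to P14 (edgeR adjusted p = 0.742) and -0.91 ± 0.38 from P14 to P56 (adjusted p = 0.280).

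The following peaks were chosen after their values were seen. The peak over the start of Wnt16 (chr6:22288032-22289117) stood at 32.9, 11.1 and 18.8 CPM at P1, at 36.8, 34.2 and 44.2 CPM at P14, and at 19.7, 17.9 and 31.7 CPM at P56, with P14 above both other stages as at its TSS. The log2 change to P14 was 0.83 ± 0.38 (edgeR adjusted p = 0.790), and 1.301 without P1 replicate 1 and P56 replicate 2 (adjusted p = 0.0160). The peak 1487 bp upstream of Sfrp5 (chr19:42203739-42205122) stood at 47.7, 22.2 and 12.3 CPM at P1, at 38.6, 43.6 and 44.2 CPM at P14, and at 38.1, 48.1 and 61.8 CPM at P56. P1 replicate 1 was apart from the other P1 libraries. The log2 change to P56 was 0.82 ± 0.33 (edgeR adjusted p = 0.195), and 1.54 without P1 replicate 1 (adjusted p = 0.0144).

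**Figure D5:**
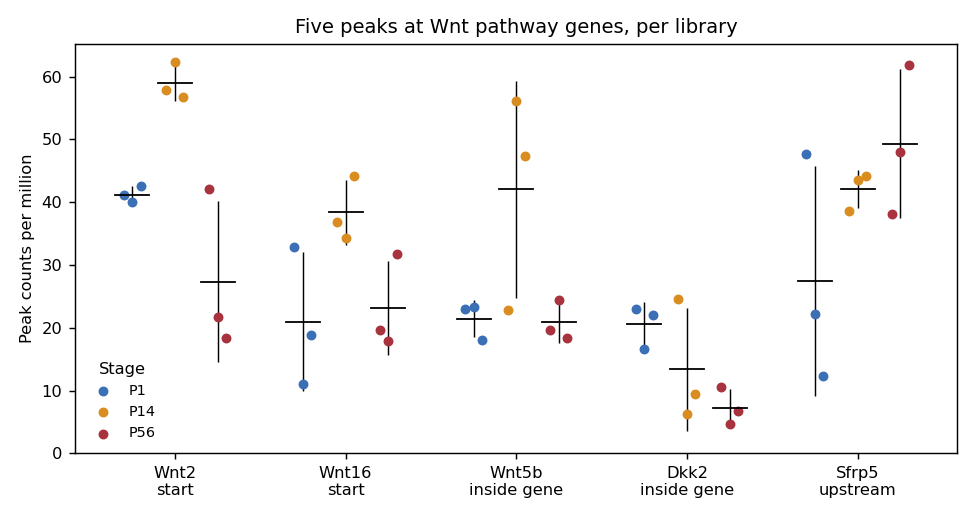
Level (vertical axis, CPM) of 5 peaks at Wnt pathway genes in each library, coloured by stage; points are libraries, horizontal lines the mean of 3 and vertical lines the SD. The P14 libraries lie above all others at Wnt2 (56.8 to 62.3 CPM) and Wnt16 (34.2 to 44.2 CPM), and the P56 libraries below all P1 libraries at Dkk2.

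Other genes of the pathway were read from 7 lists with 93 distinct genes, of which 87 were tested. From P1 to P56, 5 of 87 rose and none fell, beside a background of 1.72% up, with a median log2 change of 0.28 and 71 of 87 above 0. In the other comparisons none passed. Of 19 tested genes of the destruction complex and the Dishevelled family, 3 rose. Dvl1, a Dishevelled protein that relays the signal from Frizzled, stood at 69.5, 83.6 and 64.1 CPM at P1 and at 118, 128 and 107 CPM at P56, with no overlap. It rose by a log2 change of 0.71 ± 0.17 (edgeR adjusted p = 0.0209).

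Dvl2, its relative, rose by 0.67 ± 0.17 (edgeR adjusted p = 0.0310), from 66.9, 77.4 and 66.7 CPM to 91.6, 127 and 117 CPM. Csnk1d, a casein kinase 1 gene, rose by 0.66 ± 0.17 (adjusted p = 0.0370), from 88.2, 78.8 and 83.5 CPM to 110, 162 and 123 CPM. In each of these genes all P56 libraries were above all P1 libraries. Of 18 planar polarity genes and other Wnt receptors, 2 rose. Prickle3, a planar polarity gene, rose by 1.12 ± 0.24 (edgeR adjusted p = 0.0135), from 35.2, 24.7 and 34.7 CPM to 49.3, 97.8 and 58.3 CPM, and P56 replicate 2 was far above the rest. Celsr3, a cadherin of the same branch, rose by 0.61 ± 0.16 (edgeR adjusted p = 0.0378), from 87.8, 88.4 and 86.6 CPM to 140, 118 and 146 CPM.

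None passed in 5 lists: Wnt secretion (0 of 6, median 0.49), R-spondins with their receptors and ligases (0 of 9, median 0.10), other antagonists (0 of 8, median 0.06), nuclear cofactors (0 of 14, median 0.30), and feedback and target genes (0 of 19, median 0.24). Named by the smallest p of each list, and not past the threshold, were Notum (0.56) and Vps35 (0.66) in secretion, Znrf3 (0.62) and Rspo1 (0.52) among the R-spondin genes, Sostdc1 (-0.94) and Kremen1 (0.37) among the antagonists, Hdac1 (0.45) and Bcl9l (0.55) among the cofactors, and Ccnd1 (0.70) with Znrf3 among the targets. The 5 calls were near the threshold. Between 0 and 8 of the 87 genes were called over the alternatives, with 1 without P56 replicate 2, 1 without any single P1 library, 2 without P14 replicate 1 and 2 without P56 replicate 3. From P1 to P56, 5 of 10 cardiomyocyte markers also rose.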

How the data were processed

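Per the labels, ATAC-seq was made from Pcm1-sorted nuclei of pooled mouse hearts, with 3 libraries at each of P1, P14 and P56, described as biological replicates. The authors deposited unnormalised read counts per TSS region and per peak of a common list; the width of a TSS region and the stages pooled to call peaks are not stated. The build was GRCm38, and featureCounts 1.4.2, MACS 1.4.0, BWA 0.7.10, bedtools 2.26, SAMtools 1.3.1 and bcl2fastq 2.17.1.14 are named in the submitters' processing notes; read filters are not given in the sources used here. Every deposited region had a mean of at least 10 counts.

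Each table was fitted whole with edgeR 4.0.16 in R 4.3.3: TMM scaling, its default expression filter (33747 TSS regions and 25885 peaks kept), 1 coefficient per stage over the 9 libraries, the two-sided quasi-likelihood F test, and Benjamini-Hochberg adjustment over the table with a threshold of 0.05. Log2 changes carry the SE of the fit, and levels are CPM with TMM scaling. The fits were also run on simulated counts with known changes, drawn without differences in signal over background between libraries. That run cannot show how such differences affect the calls. Alternatives used DESeq2 1.42.0, limma-voom 3.58.1, other scalings and filters, fits of 2 stages, and each library left out. Leaving out P1 replicate 1 together with P56 replicate 2, and the counts for ligands and for other pathway genes, were chosen after seeing the data.

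The genes and lists were chosen with earlier results of these data known. Values in every library are given for up to 3 genes per role with the smallest p for any stage difference and for a panel of 10; in other pathway lists those past the threshold, otherwise 2 with the smallest p; and of the peaks the 3 with the smallest p. Other genes named are marked as chosen with their values in view. Positions of genes and promoter sequences are from RefSeq, GRCm38.p6: all 44 genes had a position and 30 a promoter entry. Too few had an entry to compare base composition. Peak positions are printed as deposited. Libraries of a stage differed by more than counting error, so none was counted as a copy. The labels give no batch, sex or litter.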

Additional observations from a re-analysis of the deposited data

How the results depend on the processing

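All 44 genes kept an adjusted p above the threshold in most alternatives; those that passed were Sfrp4, Wnt9a, Wnt3a, Wnt1 and Fzd5, as given with each gene. Counts of these genes called from P1 to P56 were 1 with the peak table's factors, limma-voom, the replicate block and without both P56 replicate 2 and P1 replicate 1 (hereafter without both), and 0 to 1 with single libraries left out. Over all regions, those called from P1 to P56 numbered 2504 with the peak table's factors and 1982 with the replicate block, beside 853 in the main fit. Without both, 2 of the genes were called from P1 to P14 and 2 for any stage, where single libraries left out gave 0 to 1. Over all regions the calls without both were 293 from P1 to P14 and 613 for any stage, beside 4 and 236 in the main fit. For peaks at the genes 1 was called from P1 to P56 with the replicate block (Dkk2, -1.50, adjusted p = 0.0309) and 1 without both, with 0 to 1 for single libraries left out there and from P14 to P56; without both, 3 were called from P1 to P14.

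Same-numbered libraries of different stages correlated at -0.07 to 0.21 in their deviations from the stage means (9 pairs) and others at -0.26 to 0.24 (18 pairs). These ranges overlap, so they cannot tell whether same-numbered libraries share more than a number. With the replicate block Wnt9a had 0.84 from P1 to P56 (adjusted p = 0.0220), and 1982, 12 and 76 regions were called in P56 vs P1, P14 vs P1 and P56 vs P14, and 1214 for any stage.

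The counts of all regions called moved widely. From P1 to P56 there were 2504 with the peak table's factors (204 up, 2300 down), 219 with loess offsets (121 up, 98 down), 270 with a mean count of at least 20 (153 up, 117 down), 292 with DESeq2 (289 up, 3 down), 185 with the 2 stages alone, and 147 to 1523 with single libraries left out. Library size alone moved the median of all regions from -0.01 to -0.14, and the peak table's factors to -0.30. From P1 to P14 there was 1 with loess offsets, DESeq2 or limma-voom, 2 with the mean count of 20, 7 with 2 stages alone, 0 to 9 with single libraries left out and 293 without both libraries. From P14 to P56 there were 0 with DESeq2's size factors, the mean count of 20 or limma-voom, 11 with library size, 22 with the peak table's factors, 23 with 2 stages alone, 21 without both and 0 to 101 with single libraries left out. For any stage there were 888 with the peak table's factors, 73 with loess, 67 with the mean count of 20, 110 with DESeq2, 613 without both and 45 to 831 with single libraries left out.

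The median of the 44 genes from P1 to P56 was 0.12 with library size, -0.025 with the peak table's factors, 0.046 with loess, 0.10 with the mean count of 20, and 0.17 to 0.29 with single libraries left out. From P1 to P14 it was 0.025 with the peak table's factors, 0.049 with loess, 0.026 with the mean count of 20, 0.06 without both, and 0.047 to 0.22 with single libraries left out. From P14 to P56 it was -0.082 with the peak table's factors and -0.025 to 0.080 with single libraries left out. For the ligands from P1 to P56 it was 0.020 with the peak table's factors (10 above 0), 0.10 with loess, and 0.20 to 0.43 with single libraries left out (12 to 16 above 0). From P14 to P56, 3 ligands were above 0 with the peak table's factors, 5 with loess and 5 to 10 with single libraries left out, with medians of -0.28 to 0.077 and, without both, 0.079. The other pathway genes called from P1 to P56 numbered 2 with library size, the peak table's factors or DESeq2, 0 with loess or 2 stages alone, 1 with the mean count of 20, 8 without both and 1 to 6 with single libraries left out.

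Of all 44 genes, 35 were above 0 from P1 to P56 in the main fit, 18 with the peak table's factors and 24 with loess. Only some genes were followed singly under each alternative. Among those, the changes from P1 to P56 that turned sign under the peak table's factors were Wnt11 -0.010, Lrp5 -0.013, Dkk2 -0.022, Dkk3 -0.024, Sfrp1 -0.26, Axin2 -0.026 and Tcf7l2 -0.13. Sfrp1 was also -0.12 with library size, -0.093 with loess, -0.13 with the mean count of 20, -0.036 with limma-voom and -0.22 to 0.29 with single libraries left out. Axin2 was -0.0069 with loess. Tcf7l2 was -0.081 with loess, -0.18 without both and -0.019 to 0.27 with single libraries left out. Fzd5 was -0.42 without both and -0.10 to 0.65 with single libraries left out. The cause was not tested. Of 1231 values of single genes and peaks under alternatives, 1144 kept direction and side of the threshold, 14 newly passed, 51 no longer passed and 22 turned sign.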
